A study of Mus musculus with 12 samples.

Results

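The 10 genes examined carry the calcium signal of osteoclasts to the transcription factor NFATc1, and they were followed through 12 bulk RNA-seq. libraries. They were chosen by name for their place in the pathway and comprise the inositol trisphosphate (IP3) receptors Itpr1 and Itpr2, the store-operated calcium entry genes Stim1 and Orai1, the calmodulin kinases Camk2d and Camk4, the calcineurin subunits Ppp3ca, Ppp3cb and Ppp3r1, and the calcineurin regulator Rcan1. All 10 were found among the 47643 genes of the count table, and 9 of them passed the filter on low counts that left 13681 genes for testing, the exception being Camk4. In all groups, monocytes grown from the marrow of femur and tibia (BMMs) of BALB/c WT mice were differentiated into osteoclasts with M-CSF and RANKL, and RNA was harvested on day 3. OCsCtr were left without a further stimulus. OCsEo were cultured from day 0 for 48 h with eosinophils sorted from hyper-eosinophilic IL-5tg/4get mice, at 2 eosinophils per BMM, and OCsEoS received eosinophil supernatant at a 1:2 dilution for the same time, and on day 2 both stimuli were removed by washing and a change of medium. Each group held 4 libraries, described by the study as biological replicates. The labels do not say which mice or cultures they came from, so p-values measure the spread between these libraries. The age and sex of the mice are not given in the sources used here, and the labels give M-CSF and RANKL as 5 and 10 ng/µL where the study's methods use ng/mL and another M-CSF concentration for differentiation. The comparisons ask whether the genes of this pathway change when osteoclast precursors meet eosinophils or what eosinophils release.

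In osteoclast precursors, signals from immunoreceptors with ITAM adaptors cooperate with RANK to activate phospholipase C gamma, whose product IP3 opens the IP3 receptors of the endoplasmic reticulum. The emptied store is sensed by STIM proteins, which open ORAI channels in the plasma membrane, and calcium then binds calmodulin, which switches on the calmodulin kinases and the phosphatase calcineurin. Calcineurin removes phosphates from NFATc1, the leading transcription factor of osteoclast formation, so that it enters the nucleus and induces osteoclast genes, whereas NFAT export kinases return it to the cytoplasm.

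Total counts per library ranged from 27837530 to 40327869, and levels are given as TMM-scaled CPM. The median log2 fold change of all genes tested was -0.01 in OCsEo and -0.01 in OCsEoS, each against OCsCtr. The cells carried the markers of their label: 10 osteoclast markers, with Acp5 and Ctsk among them, summed to 28087 to 34234 CPM in OCsCtr. This sum was 17913 to 23038 CPM in OCsEo and 14764 to 21928 CPM in OCsEoS, and 8 of the 10 markers were downregulated in each. In bulk RNA, fewer osteoclasts and less of these transcripts per cell cannot be told apart. The 7 macrophage markers summed to 2269 to 2585, 2078 to 2422 and 1864 to 2240 CPM in OCsCtr, OCsEo and OCsEoS, a sum carried by Csf1r and Cd68, which had negative fold changes. The other 5 had positive ones in both comparisons, and Cd14 was upregulated in OCsEo, and Cd14, Adgre1 and Mrc1 in OCsEoS, where Csf1r was downregulated. The 8 eosinophil markers summed to 56.0 to 73.4, 53.8 to 65.5 and 48.3 to 54.4 CPM, a sum carried by Ccr3, which was at 59.6 CPM in OCsCtr and 48.7 CPM in OCsEo. Of the 3 that passed the filter, Siglecf was upregulated in OCsEo, from 0.428 to 2.94 CPM (log2 fold change 2.76, adjusted p = 0.000562, edgeR) with no overlap, and Prg2 was downregulated in OCsEoS, from 5.53 to 0.815 CPM. Epx, Prg3, Ear1 and Ear6 were at 0 in every OCsEoS library. The 7 neutrophil markers summed to 303 to 438, 441 to 585 and 349 to 412 CPM, with the highest range in OCsEo. The T cell, B cell, mast cell and stromal markers summed to at most 3.67, 20.4, 1.41 and 58.0 CPM in any library. The part of these marker differences in the values that follow was not tested.

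Of the 9 genes tested, 0 were differentially expressed in OCsEo and 1, Itpr1, in OCsEoS, where a differentially expressed gene (DEG) had a Benjamini-Hochberg adjusted p under 0.05 in edgeR's quasi-likelihood test and an absolute log2 fold change over 0.5. At an unadjusted p under 0.05, 3 and 2 of the 9 genes were found, and the share of all genes at this threshold was not computed. By the adjusted p alone, 1 of the 9 passed in each comparison, beside 17.4% and 23.0% of all genes tested. Among all genes tested, 5.88% were DEGs in OCsEo and 7.73% in OCsEoS, with 3.63% upregulated in OCsEoS. The median log2 fold change of the 9 genes was 0.00 in OCsEo and -0.04 in OCsEoS. The 95% interval of the fold change lay wholly within a log2 fold change of 0.5 in either direction for 7 of the 9 genes in OCsEo, all but Itpr1 and Itpr2, and for 8 of the 9 in OCsEoS, all but Itpr1. Over all genes tested this held for 45.1% and 42.2%. DESeq2 on the same 2 groups, the test of the study, also called 0 and 1 of the genes.

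**Figure D1:**
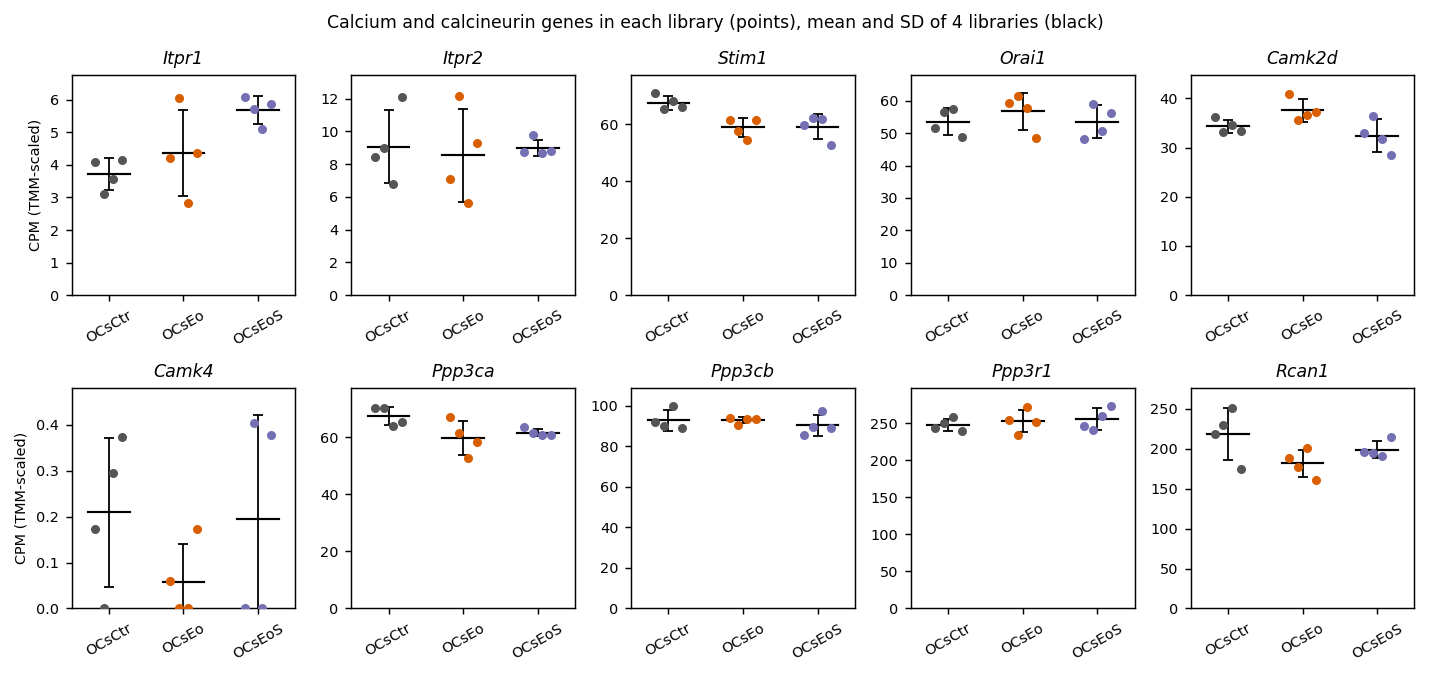
Level of the 10 genes in each library, in TMM-scaled CPM on a linear axis from 0 that differs between genes. Points are libraries, and the black line and bar are the mean and SD of 4 libraries per group. The 4 OCsEoS libraries lie above all OCsCtr libraries for Itpr1, and both stimulated groups lie below OCsCtr for Stim1.

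Per kilobase of gene length, which allows genes to be compared, the levels in OCsCtr spanned the regulator and the small subunit at the top and the release channels and Camk4 at the bottom. Rcan1 had 87.2 ± 12.9 CPM per kilobase (SD, n = 4) and Ppp3r1 had 76.8 ± 2.61, and their libraries overlapped, so their order was not resolved. Orai1 followed with 23.3 ± 1.82, Stim1 with 18.8 ± 0.689 and Ppp3cb with 15.4 CPM per kilobase (14.8 to 16.6). Every other pair of neighbours in the order was apart in all 4 libraries. Ppp3ca had 6.76 ± 0.322, Camk2d 1.53 ± 0.0598, Itpr2 0.612 ± 0.150 and Itpr1 0.204 ± 0.0264 CPM per kilobase. The lengths are those of the count table, 2295 to 22493 bases, and do not tell which isoforms the cells used.

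Itpr1 (ENSMUSG00000030102, GRCm38 chromosome 6, 108213096 to 108551109, plus strand) encodes the type 1 IP3 receptor, a calcium release channel of the endoplasmic reticulum. The OCsCtr libraries held 4.09, 3.12, 3.56 and 4.14 CPM, the OCsEo libraries 4.21, 6.06, 2.82 and 4.37 CPM, and the OCsEoS libraries 6.09, 5.70, 5.11 and 5.86 CPM. All 4 OCsEoS libraries were above all 4 OCsCtr libraries, whereas the OCsEo libraries spread over the range of both. Itpr1 was upregulated in OCsEoS, with a log2 fold change of 0.61 ± 0.22 (SE, 95% interval 0.16 to 1.06, adjusted p = 0.0483, edgeR), a 1.53-fold rise. In OCsEo the log2 fold change was 0.23 ± 0.22 (adjusted p = 0.543), and OCsEoS did not differ from OCsEo beyond the spread of the libraries (0.38 ± 0.22, adjusted p = 0.535). Single OCsEo libraries weighed on both of these values. The OCsEo change was 0.025 without OCsEo 2 and 0.39 without OCsEo 3, and OCsEoS against OCsEo was then 0.58 and 0.22, with adjusted p of 0.236 to 0.957 in these fits. The call in OCsEoS lay close to the threshold. It was lost when any 1 of the 8 libraries was left out, with log2 fold changes of 0.54 to 0.66 and adjusted p of 0.0553 to 0.127, and without the filter on low counts (adjusted p = 0.0716). Of 22 alternative settings, 11 kept the call. Among these, adjusted p was 0.0169 by DESeq2 and 0.0229 by edgeR fitted to OCsEoS and OCsCtr only. After correction for a trend over gene length, the log2 fold change was 0.86 (adjusted p = 0.00307, edgeR). Exons of Itpr1 share 108 bases with the antisense gene Gm44040 and 181 bases with Gm44101, and whether reads were counted by strand is not given in the sources used here.

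Itpr2 (ENSMUSG00000030287, chromosome 6, 146108299 to 146502223, minus strand) encodes the type 2 receptor, which is known for its part in the calcium oscillations of osteoclast precursors. It held 8.42, 8.96, 6.77 and 12.1 CPM in OCsCtr, 7.08, 12.1, 5.61 and 9.32 CPM in OCsEo, and 8.72, 9.75, 8.70 and 8.78 CPM in OCsEoS. The 3 groups overlapped throughout. The fitted change was -0.09 ± 0.21 in OCsEo (95% interval -0.52 to 0.34, adjusted p = 0.836) and -0.01 ± 0.21 in OCsEoS (95% interval -0.44 to 0.42, adjusted p = 0.978), so changes within these bounds were not excluded.

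Within the IP3 receptor family, counts per kilobase were dominated by Itpr3, the type 3 receptor, with 84.3 ± 2.14% of the family in OCsCtr, 81.2 ± 3.19% in OCsEo and 78.0 ± 2.90% in OCsEoS. Itpr1 made up 4.25, 3.25, 4.19 and 4.08% in the OCsCtr libraries, 5.13, 6.60, 4.89 and 5.38% in the OCsEo libraries and 8.55, 6.71, 8.03 and 6.48% in the OCsEoS libraries. Neither stimulated group overlapped OCsCtr, whereas OCsEo and OCsEoS overlapped each other. The mean share was 3.94 ± 0.469% in OCsCtr, 5.50 ± 0.763% in OCsEo and 7.44 ± 1.01% in OCsEoS. Each difference from OCsCtr reached 0.0286, the smallest p that a two-sided exact permutation test of 4 against 4 libraries can give. The adjusted p over the 15 shares compared was 0.143 for both, so neither passed the correction. A share at this smallest p could not pass on its own, so the corrected test cannot decide whether the share differed. The Itpr1 share does not depend on the scaling of the libraries. Itpr3, named here after its values were seen, had a log2 fold change of -0.33 in OCsEo (adjusted p = 0.0863, edgeR) and -0.39 in OCsEoS (adjusted p = 0.0357), the latter under the fold change cut-off.

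**Figure D2:**
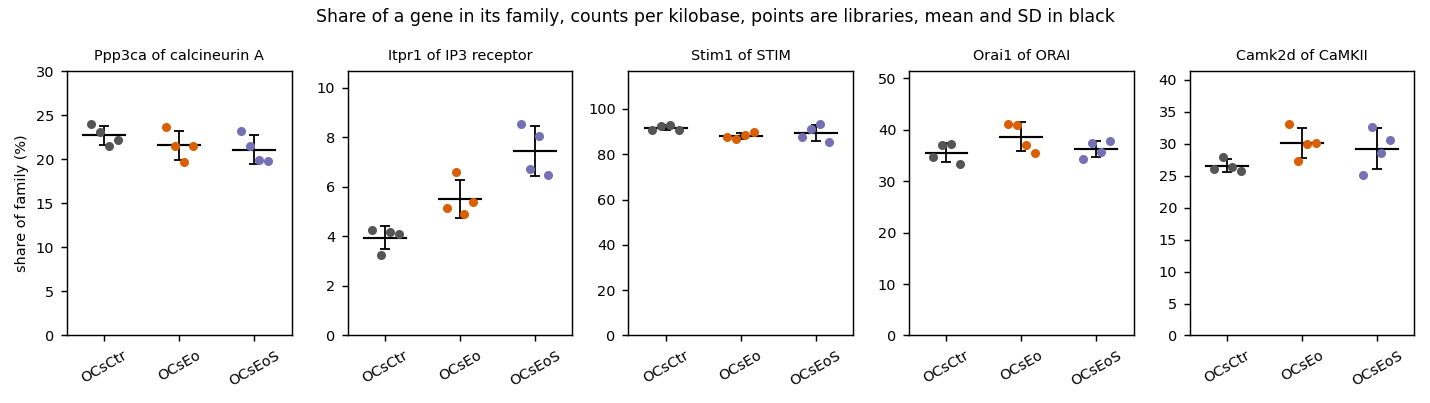
Share of 1 gene in its family per library, in percent of the family's counts per kilobase, on linear axes from 0. Points are libraries, and the black line and bar are the mean and SD of 4 libraries. Itpr1 rises from 3.94% of the IP3 receptors in OCsCtr to 7.44% in OCsEoS, and none of the 15 differences passes an adjusted p of 0.05. With 4 libraries per group, a difference at the smallest possible p could not pass on its own.

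The 3 tested genes whose log2 CPM followed Itpr1 most closely over the 12 libraries, of 13680 compared, were L1cam, a cell adhesion molecule of the immunoglobulin family (Pearson r = 0.877), the predicted gene Gm6091 (r = 0.858) and Gja1, the gap junction protein connexin 43 (r = 0.845). With the group means taken out, r was 0.871, 0.738 and 0.670. These are descriptions, because the genes share libraries and depth and were picked as the highest of all.

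Stim1 (ENSMUSG00000030987, chromosome 7, 102267824 to 102436848, plus strand) encodes the calcium sensor of the endoplasmic reticulum. Its level was 70.8, 65.3, 68.0 and 65.9 CPM in OCsCtr, 61.6, 57.7, 54.6 and 61.5 CPM in OCsEo, and 59.7, 62.1, 61.9 and 52.6 CPM in OCsEoS. Every stimulated library was below every OCsCtr library. The log2 fold change was -0.20 ± 0.07 in OCsEo (95% interval -0.35 to -0.05, adjusted p = 0.0662, edgeR) and -0.19 ± 0.07 in OCsEoS (95% interval -0.34 to -0.04, adjusted p = 0.0635), so that neither passed the adjusted threshold and both were under the cut-off. The comparisons share the OCsCtr libraries. Of the 9 genes tested, 1 (Stim1) had OCsEo and OCsCtr libraries that did not overlap, and 3 (Stim1, Itpr1 and Ppp3ca) had OCsEoS and OCsCtr libraries that did not overlap. Over all genes tested, the groups did not overlap for 21.5% and 25.7%.

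Orai1 (ENSMUSG00000049686, chromosome 5, 123015074 to 123030456, plus strand) encodes the pore of the store-operated channel. It held 51.6, 56.6, 57.5 and 48.7 CPM in OCsCtr, 59.2, 61.4, 57.6 and 48.6 CPM in OCsEo, and 48.1, 59.1, 50.5 and 56.2 CPM in OCsEoS. All 3 groups overlapped. The log2 fold change was 0.08 ± 0.09 in OCsEo (95% interval -0.10 to 0.27, adjusted p = 0.598) and -0.0022 ± 0.09 in OCsEoS (95% interval -0.19 to 0.18, adjusted p = 0.990). A change of 0.5 on the log2 scale lay outside both intervals.

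Among the STIM genes, Stim1 made up 91.7 ± 1.17% of the counts per kilobase in OCsCtr, 88.2 ± 1.34% in OCsEo and 89.4 ± 3.62% in OCsEoS. The difference of OCsEo from OCsCtr had an exact permutation p of 0.0286 and an adjusted p of 0.143, and that of OCsEoS an exact permutation p of 0.343. Orai1 made up 35.6 ± 1.91%, 38.7 ± 2.84% and 36.3 ± 1.60% of the ORAI genes, and Orai3 held the largest part, 48.7% in OCsCtr. STIM counts thus came mostly from 1 gene and ORAI counts from several in all groups.

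Camk2d (ENSMUSG00000053819, chromosome 3, 126596302 to 126846326, plus strand) encodes the delta chain of calmodulin kinase II. It held 36.2, 33.2, 34.6 and 33.5 CPM in OCsCtr, 40.9, 35.7, 36.6 and 37.2 CPM in OCsEo, and 33.0, 36.5, 31.7 and 28.4 CPM in OCsEoS. In OCsEo 3 of the 4 libraries lay above all OCsCtr libraries and 1 lay within their range. In OCsEoS 3 of the 4 lay below all OCsCtr libraries and 1, at 36.5 CPM, lay above them all. The OCsEoS libraries thus lay on both sides of OCsCtr. The log2 fold change was 0.13 ± 0.09 in OCsEo (adjusted p = 0.359, edgeR) and -0.08 ± 0.09 in OCsEoS (adjusted p = 0.556). After correction for a trend over gene length the values were 0.37 (adjusted p = 0.0107) and 0.19, so the direction in OCsEoS depended on this setting. OCsEoS against OCsEo gave -0.21 ± 0.09 with an unadjusted p of 0.0251 and an adjusted p of 0.360, the lowest p of the 9 genes in this comparison. Camk2d made up 26.5 ± 0.982% of the calmodulin kinase II genes in OCsCtr, 30.2 ± 2.36% in OCsEo and 29.2 ± 3.17% in OCsEoS, with exact permutation p of 0.0571 and 0.229 against OCsCtr.

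Camk4 (ENSMUSG00000038128, chromosome 18, 32939041 to 33195767, plus strand), which encodes calmodulin kinase IV, a kinase that activates CREB, had few counts. The counts were 5, 0, 10 and 12 in OCsCtr, 2, 0, 0 and 5 in OCsEo, and 0, 14, 0 and 13 in OCsEoS. It was at 0 in 5 of the 12 libraries and above the floor of 3 counts in 6, with libraries at 0 in every group, and 3 counts corresponded to 0.0744 to 0.108 CPM. No difference between groups was detectable at this depth, and a fit without the filter on low counts gave an adjusted p of 0.512 in OCsEo and 1 in OCsEoS. Its exons share 72 bases with the antisense gene 2310026I22Rik.

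Calcineurin is built from a catalytic A subunit, encoded by Ppp3ca, Ppp3cb or Ppp3cc, and a calcium-binding B subunit, encoded by Ppp3r1. Ppp3ca (ENSMUSG00000028161, chromosome 3, 136670124 to 136937727, plus strand) held 70.3, 70.2, 64.1 and 65.4 CPM in OCsCtr, 67.0, 61.5, 52.7 and 58.3 CPM in OCsEo, and 63.5, 61.5, 61.0 and 60.7 CPM in OCsEoS. The OCsEoS libraries were all below OCsCtr, and the OCsEo libraries overlapped it by 1 library. The log2 fold change was -0.17 ± 0.07 in OCsEo (95% interval -0.33 to -0.02, adjusted p = 0.122, edgeR) and -0.13 ± 0.07 in OCsEoS (95% interval -0.29 to 0.03, adjusted p = 0.234). Corrected for the gene length trend, the values were -0.052 in OCsEo and 0.025 in OCsEoS.

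Ppp3cb (ENSMUSG00000021816, chromosome 14, 20499364 to 20546573, minus strand) held 91.9, 90.0, 100.02 and 89.1 CPM in OCsCtr, 94.0, 90.6, 93.6 and 93.3 CPM in OCsEo, and 85.4, 89.5, 97.2 and 89.1 CPM in OCsEoS. The groups overlapped, and the log2 fold changes were 0.00 ± 0.06 (95% interval -0.13 to 0.13, adjusted p = 0.987) and -0.04 ± 0.06 (95% interval -0.17 to 0.09, adjusted p = 0.728). Ppp3r1 (ENSMUSG00000033953, chromosome 11, 17159263 to 17200375, plus strand) held 243, 250.3, 259 and 239.6 CPM in OCsCtr, 255, 235, 272 and 252 CPM in OCsEo, and 247, 241, 261 and 274 CPM in OCsEoS. The groups overlapped again, with log2 fold changes of 0.03 ± 0.06 (95% interval -0.09 to 0.15, adjusted p = 0.797) and 0.04 ± 0.06 (95% interval -0.08 to 0.17, adjusted p = 0.663). These are among the narrowest intervals of the 9 genes. Exons of Ppp3r1 share 462 bases with the protein-coding gene Wdr92 on the same strand, so reads there could belong to either. Of the catalytic subunits, Ppp3ca made up 22.7 ± 1.12% per kilobase in OCsCtr, 21.6 ± 1.66% in OCsEo and 21.1 ± 1.63% in OCsEoS, with exact permutation p of 0.286 and 0.200 against OCsCtr, and Ppp3cb held 51.8% in OCsCtr.

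Rcan1 (ENSMUSG00000022951, chromosome 16, 92391953 to 92466146, minus strand) encodes a protein that binds and restrains calcineurin, and one of its promoters is a known target of NFAT. RefSeq gives it an upstream promoter and an internal one, and the 250 bases before each start are shown because the gene's counts add up the transcripts of both, which cannot be told apart here. The upstream promoter lies at chr16:92466170-92466419 and the internal promoter at chr16:92400079-92400328, both on the minus strand of GRCm38.p6. Capitals mark the NFAT core GGAAA or, read from the other strand, TTTCC.
Rcan1 upstream promoter: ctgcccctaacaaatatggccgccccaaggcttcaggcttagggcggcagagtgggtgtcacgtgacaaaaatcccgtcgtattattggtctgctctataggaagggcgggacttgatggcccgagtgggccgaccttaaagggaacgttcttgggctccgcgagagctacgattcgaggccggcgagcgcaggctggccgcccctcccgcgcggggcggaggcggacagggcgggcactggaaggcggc
Rcan1 internal promoter: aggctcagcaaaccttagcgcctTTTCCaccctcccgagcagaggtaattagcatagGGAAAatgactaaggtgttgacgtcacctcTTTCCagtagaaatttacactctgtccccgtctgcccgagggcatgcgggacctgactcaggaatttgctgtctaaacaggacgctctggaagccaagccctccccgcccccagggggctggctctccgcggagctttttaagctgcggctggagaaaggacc

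The internal promoter held 3 NFAT cores, 1 AP-1 motif (TGANTCA) and 1 CRE (TGACGTCA), none of which overlapped another, and the upstream promoter held 0 of each. Of 32851 RefSeq promoters searched over the same 250 bases on both strands, 55.6% held an NFAT core, 6.39% at least 3, 6.75% an AP-1 motif and 1.55% a CRE. Among the other genes with an entry, Ppp3cb had 3 cores, Camk2d 1, and Itpr2, Orai1, Ppp3r1 and Stim1 had 0. Such a match describes the letters and is no sign of binding.

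The OCsCtr libraries held 218, 229.9, 251 and 175 CPM of Rcan1, the OCsEo libraries 188, 177, 201 and 161 CPM, and the OCsEoS libraries 196, 194, 191 and 214 CPM. OCsCtr spread the widest, with its lowest library inside the range of OCsEo, and both stimulated groups overlapped it. The log2 fold change in OCsEo was -0.27 ± 0.09 (95% interval -0.45 to -0.08, adjusted p = 0.0441, edgeR), which passed the adjusted threshold alone but not the fold change cut-off. Of all genes tested, 17.4% passed the adjusted threshold alone in OCsEo and 23.0% in OCsEoS. The adjusted p of Rcan1 was 0.00342 without the fourth OCsCtr library and 0.186 without the third, with log2 fold changes of -0.36 and -0.19, and it was 0.0591 when edgeR was fitted to OCsEo and OCsCtr only. In OCsEoS the log2 fold change was -0.14 ± 0.09 (95% interval -0.32 to 0.05, adjusted p = 0.306). It was -0.057 without the third OCsCtr library (adjusted p = 0.737) and -0.23 without the fourth (adjusted p = 0.0412).

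**Figure D3:**
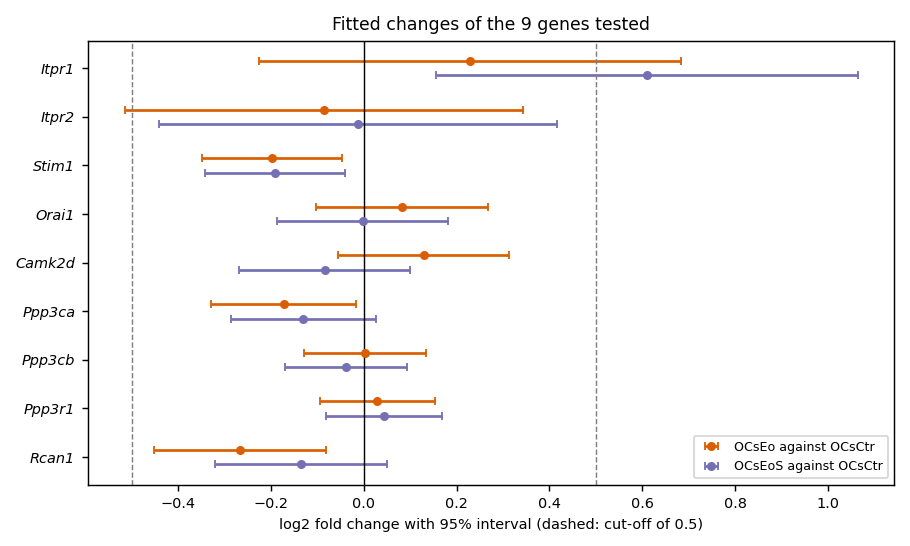
Fitted log2 fold change of the 9 tested genes with its 95% interval, in OCsEo (orange) and OCsEoS (violet) against OCsCtr. Dashed lines mark the cut-off of 0.5. Apart from Itpr1, and from Itpr2 in OCsEo, each interval lies within the cut-off in both directions.

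Between the stimulated groups, 0 of the 9 genes were DEGs, against 0.380% of all genes tested, and DESeq2 also called 0. At an unadjusted p under 0.05, 1 was found (Camk2d), and the share of all genes at this threshold was not computed. The 95% interval lay within 0.5 for 7 of the 9 genes, the exceptions being Itpr1 and Itpr2, and for 55.8% of all genes.

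Around these genes, 74 others of the pathway were examined in 8 lists, of which 62 passed the filter. In OCsEo 11 of them were downregulated and 0 upregulated, and in OCsEoS 12 were downregulated and 0 upregulated, beside 2.61% and 4.11% of all genes tested that were downregulated. The median log2 fold change of the 62 genes was -0.19 and -0.20. Of the 9 NFATc1 target genes of osteoclasts, 8 were downregulated in each comparison, with medians of -0.67 and -0.81. These were Acp5 and Ctsk, which encode enzymes of bone resorption, Calcr, Itgb3, Oscar, Atp6v0d2, Mmp9 and Clcn7. The list overlaps the osteoclast markers above and its genes were known to be lower in these libraries, so it gives no separate evidence. Itgb3, the integrin beta 3 chain of the resorbing cell, fell by 0.99 on the log2 scale in OCsEo (adjusted p = 1.02e-06, edgeR), and Mmp9, a matrix metalloproteinase, fell by 1.10 in OCsEoS (adjusted p = 7.59e-06). Dcstamp, a fusion gene, was the remaining member, with -0.36 and -0.32, under the cut-off.

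Without the target genes, 53 genes of the pathway were tested, and 3 (5.66%) were DEGs in OCsEo and 4 (7.55%) in OCsEoS. All of these were downregulated, beside 2.61% and 4.11% of all genes tested that were downregulated. In either direction, 5.88% and 7.73% of all genes were DEGs. The median log2 fold change of the 53 genes was -0.11 in OCsEo and -0.12 in OCsEoS. Fold changes were negative for 39 and 34 of them and positive for 14 and 19. Rcan2, a second calcineurin regulator of the Rcan1 family, held 88.2 to 104 CPM in OCsCtr, 47.1 to 62.0 CPM in OCsEo and 41.4 to 58.5 CPM in OCsEoS. Neither stimulated group overlapped OCsCtr. Its log2 fold change was -0.81 ± 0.10 in OCsEo (adjusted p = 2.33e-05, edgeR) and -0.98 ± 0.10 in OCsEoS (adjusted p = 4.27e-06). Per kilobase Rcan2 stood at 26.1 ± 1.78 CPM in OCsCtr, below the 87.2 of Rcan1. Atp2b4, a calcium pump of the plasma membrane, went from 57.4 ± 2.74 CPM in OCsCtr to 32.2 ± 4.56 CPM in OCsEo and 36.3 ± 6.86 CPM in OCsEoS. The fitted changes were -0.84 (adjusted p = 6.71e-05) and -0.66 (adjusted p = 0.000381) on the log2 scale. Corrected for the gene length trend, the latter was -0.48, under the cut-off.

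The other 3 DEGs were called in 1 comparison each. Plcg1, the phospholipase that makes IP3 downstream of several receptors, held 5.01 to 7.90 CPM in OCsCtr and 3.97 ± 0.652 CPM in OCsEo (-0.71 ± 0.21, adjusted p = 0.0244, edgeR), a call lost without OCsCtr 1 or 4 or OCsEo 2 or 3 (adjusted p = 0.0537 to 0.0910) and after the correction for gene length (adjusted p = 0.0508). In OCsEoS it was at 5.25 ± 1.22 CPM (adjusted p = 0.340). Plcg2, a second phospholipase C gamma gene named after its values were seen, was not called in either comparison. It held 72.2 ± 5.82, 73.7 ± 7.44 and 65.5 ± 4.21 CPM in OCsCtr, OCsEo and OCsEoS. Per kilobase it stood at 16.8 CPM in OCsCtr, against 0.825 for Plcg1. Camk2a, the alpha chain of calmodulin kinase II, went from 8.40 ± 1.22 to 5.72 ± 1.27 CPM in OCsEoS (-0.56 ± 0.18, adjusted p = 0.0313), a call lost without OCsCtr 2 or 4 or OCsEoS 3 or 4 (adjusted p = 0.0640 to 0.109) and after the correction for gene length (adjusted p = 0.0827). Dyrk2, a kinase of the family that phosphorylates NFAT, went from 20.4 ± 2.20 to 12.7 ± 1.74 CPM in OCsEoS (-0.68 ± 0.12, adjusted p = 0.000483). In OCsEo it was at -0.36 with an adjusted p of 0.0446, under the cut-off. The difference between the stimulated groups had an adjusted p of 0.497 for Plcg1, 0.865 for Camk2a and 0.324 for Dyrk2.

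Nfatc1 itself, named here as the end point of the pathway after its values were seen, held 391 ± 13.8 CPM in OCsCtr, 292 ± 33.1 CPM in OCsEo and 302 ± 33.2 CPM in OCsEoS. Its log2 fold change was -0.42 ± 0.08 (adjusted p = 0.000935, edgeR) and -0.37 ± 0.08 (adjusted p = 0.00174), both under the cut-off. Of the 5 NFAT genes, 0 were DEGs in either comparison, beside 5.88% and 7.73% of all genes tested. By the adjusted p alone, 2 of the 5 passed in OCsEo and 1 in OCsEoS, Nfatc1 among them in both. Of all genes tested, 17.4% and 23.0% passed in this way.

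**Figure D4:**
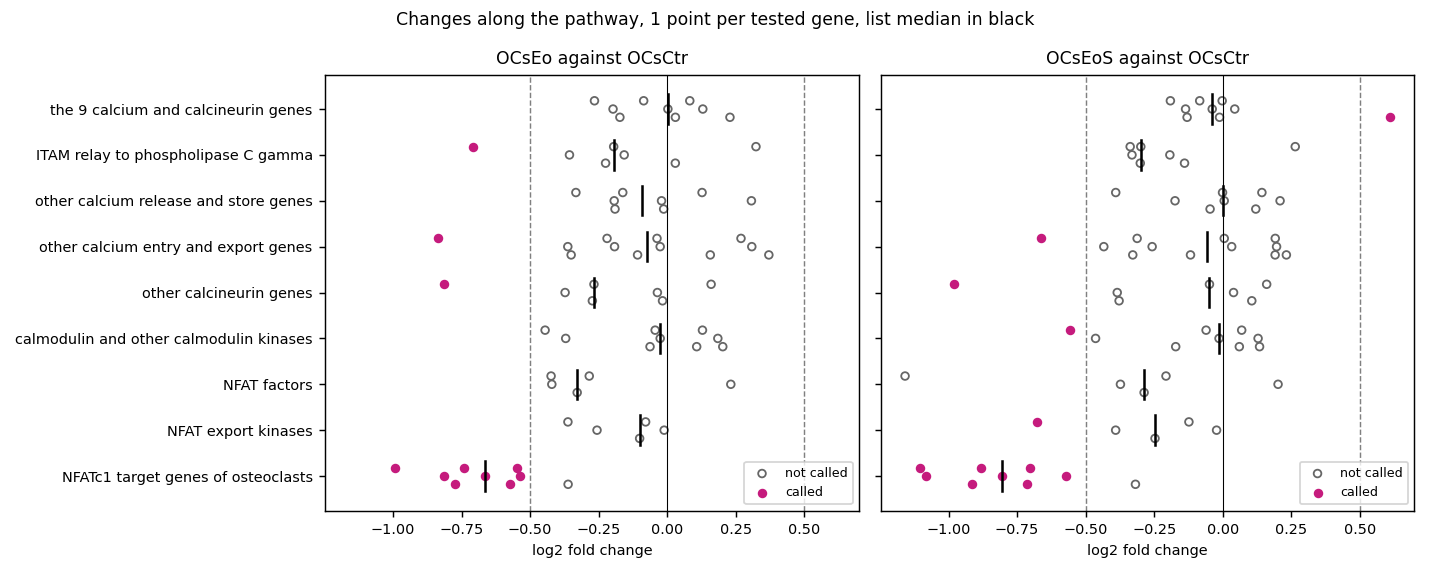
Log2 fold change of each tested gene of the pathway in OCsEo (left) and OCsEoS (right) against OCsCtr, by list. Filled points are DEGs, open points are not, black bars are list medians and dashed lines mark the cut-off of 0.5. The NFATc1 target genes have medians of -0.67 and -0.81, and the 9 calcium and calcineurin genes have medians of 0.00 and -0.04. The target genes overlap the osteoclast markers and were known to be lower in these libraries, so this contrast gives no separate evidence.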

How the data were processed

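Bulk RNA-seq. libraries (NEBNext Ultra RNA) were sequenced from paired ends. Reads were aligned by the authors to GRCm38/mm10 with HISAT2 2.0.5. The deposited values are raw whole-number counts from featureCounts. The annotation and the strand setting are not given in the sources used here. Of the 47643 genes, 47224 were found in GENCODE vM21, used for overlaps. Coordinates and lengths are those of the deposited table. The 10 genes and the lists around them were chosen with earlier results of these data known.

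Counts were analyzed in R 4.3.3 with edgeR 4.0.16: filterByExpr with a minimum count of 10 (13681 genes), TMM scaling (0.968 to 1.03) and the quasi-likelihood F-test in 1 fit of all 12 libraries, with Benjamini-Hochberg adjustment over all genes. The thresholds are those of the study's methods. DESeq2 1.42.0, other scalings and filters, a replicate block, thinning and a gene length trend were alternatives. On simulated counts for OCsEo and OCsCtr, 140 of 200 changed genes were recovered among 13681, with 2 false calls. Recovery at fold changes as small as those of the 10 genes was not tested. Replicate libraries differed beyond sampling noise in every pair. Shares were compared by exact permutation tests. Named were the 10 genes, the other pathway genes that were called, and the 3 genes most correlated with a called gene. Family partners, Plcg2, Nfatc1, Dcstamp and the Rcan1 promoters were added after values were seen. Promoters are from RefSeq (GRCm38.p6), where 7 of the 10 genes have an entry. Depth limits precision through counting error, and 3 counts were taken as the floor.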

Additional observations from a re-analysis of the deposited data

Results flagged for a closer look

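Of 45 groups of 4 libraries examined, 1 held a library that stood apart. Itpr2 in OCsEoS library 2 was at 9.75 CPM, whereas the other 3 libraries of the group lay between 8.70 and 8.78 CPM, so that the gap took up 0.925 of the group's range, above Dixon's critical value. Chance alone flags about 1 in 20 groups, and the value lies within the range of Itpr2 in OCsCtr.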

How the results depend on the processing

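The count of the 10 genes called in OCsEo was 1 with no fold change cut-off (Rcan1). In OCsEoS it was 0 without the filter on low counts, with a cut-off of 1 on the log2 scale and with glmTreat against 0.5, and 0 to 0 when 1 library was left out. The other pathway genes called numbered 22, 0 and 1 in OCsEo with no cut-off, a cut-off of 1 and glmTreat, and 24, 2 and 4 in OCsEoS, and 9 to 11 and 10 to 13 with 1 library left out. With the group means taken out, libraries of the same replicate number had r of -0.044 to 0.094 over 12 pairs. Pairs with different numbers had r of -0.115 to 0.123. The labels do not say whether the numbers pair the libraries, and these values do not settle it. With a replicate block 0, 1 and 0 of the 10 genes were called in OCsEo, OCsEoS and between them, with Itpr1 at 0.60 (adjusted p = 0.0482, edgeR).

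Reversals concerned values near 0 that were not called, and the cause was not tested. With the gene length trend taken out, Itpr2 in OCsEo was 0.082, and in OCsEoS Ppp3ca was 0.025, Ppp3cb 0.042, Camk2d 0.19 and Itpr2 0.21. Ppp3cb in OCsEo was -0.000946 without the filter and -0.0067 with counts thinned. Itpr2 in OCsEoS was 0.017 with the replicate block and 0.0016 thinned. Orai1 in OCsEoS was 0.00246 and 0.00146 by DESeq2 on 12 libraries and on 2 groups, 0.0070 by edgeR on 2 groups, 0.0026 by DESeq2 size factors, 0.0073 with at least 10 counts in every library and 0.0053 without mitochondrial genes. The Ppp3ca share between the stimulated groups was 0.55 points when not divided by length.

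With 1 library left out, the log2 fold change in OCsEo ranged from -0.017 to 0.043 for Ppp3cb, -0.0079 to 0.064 for Ppp3r1 and -0.31 to 0.084 for Itpr2. In OCsEoS it ranged from -0.071 to 0.0047 for Ppp3cb, -0.13 to 0.16 for Itpr2 and -0.047 to 0.054 for Orai1. Between the stimulated groups it ranged from -0.014 to 0.091 for Ppp3ca, -0.021 to 0.050 for Ppp3r1, -0.084 to 0.30 for Itpr2 and -0.027 to 0.060 for Stim1. Shares ranged from -0.065 to 1.37 points for Orai1 in OCsEoS and, between the stimulated groups, from -1.20 to 0.20 for Ppp3ca, -2.07 to 0.41 for Camk2d and -0.18 to 2.58 for Stim1. A paired test of the shares could not pass, since its smallest p with 4 pairs is 0.125 (exact). Depth limits Camk4 most, at 0 to 14 counts per library.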
